A study of Mus musculus with 4 samples.

Results

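The genes described here are 50 mouse factors that build ribosomes or modify RNA, grouped by role. They comprise 4 box C/D snoRNP proteins, 5 box H/ACA snoRNP proteins, 7 stand-alone pseudouridine synthases, 2 nucleophosmins, 4 other nucleolar proteins, 6 genes of the RNA polymerase I machinery, 10 factors of the small subunit processome and 40S assembly, and 12 factors of large subunit assembly. They were fixed as a list of symbols, and their probes were found by the transcript accession printed with each probe. All 50 were among the 13539 genes tested, and they held 78 of the 28270 probes kept. All 78 probes were well above background on all 4 arrays.

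The RNA came from S-180 cells, a mouse sarcoma line bought from a cell repository and grown in serum-containing RPMI medium. One group of cultures was left untreated (control, 2 samples) and the other was given fluoxetine, a selective serotonin reuptake inhibitor used as an antidepressant, at 20 µM for 12 h (2 samples). Each sample was labelled with Cy3 and hybridised to its own single-colour Agilent mouse array. The labels call the samples of a group biological replicates without saying that they came from separate cultures, so the p-values measure only the spread between these arrays. Both groups share the same line, so the results describe 1 line in culture.

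Ribosomes are assembled in the nucleolus. RNA polymerase I transcribes the long precursor of the ribosomal RNAs, which the small subunit processome and the large subunit assembly factors fold, cut and pack with ribosomal proteins. Guide RNAs bound by box C/D proteins direct methylation of the ribose in ribosomal RNA, and those bound by box H/ACA proteins direct the change of uridine to pseudouridine. Stand-alone pseudouridine synthases find their sites in transfer RNA, mRNA and other RNAs without a guide. Nucleophosmins are histone and ribosomal protein chaperones of the nucleolus. Many of these genes are known targets of MYC, which binds the E-box CACGTG.

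The promoters are shown because these genes are known as targets of factors that bind that E-box. Any part of the E-box in the changes below was not tested. RefSeq promoter windows of assembly GRCm38.p6 ran from 250 bases before to 50 bases after a gene's start. They were matched by symbol to 43 of the 50 genes, among them the 6 that fell with fluoxetine. CACGTG, which reads the same on both strands, was found in the windows of 10 of the 43 (23.3%), against 8.9% of 17492 protein-coding genes and 8.1% of all 27025 genes with such windows. The 10 were Nle1, Nop2, Pes1, Pus1, Pus3, Pus7, Rrn3, Utp20, Utp4 and Wdr43. Of these, Pus3, Pus7 and Wdr43 are among the 6 genes that fell, and the other 7 were not called. The sets set beside them hold genes whether or not these arrays detected them, whereas all 50 genes were detected, so the sets are unlike. These shares are descriptions of the letters in the windows and carry no test.

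The windows of 30 bases around the E-box are given 5′ to 3′ on the gene's strand, with the E-box in capitals, for Pus7 and Wdr43, which fell, and for Rrn3 and Nop2, whose values did not pass the test:
Pus7 (chr5:23783666-23783695, minus strand): ggcgcagcgccgCACGTGtgcgagcccggc
Wdr43 (chr17:71616220-71616249, plus strand): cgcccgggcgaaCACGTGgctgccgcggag
Rrn3 (chr16:13780472-13780501, plus strand): gagcgccaaggtCACGTGcacacgcctcta
Rrn3 (chr16:13780639-13780668, plus strand): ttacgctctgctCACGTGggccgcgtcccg
Nop2 (chr6:125131811-125131840, plus strand): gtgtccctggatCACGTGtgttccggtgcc

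The 250 bases before the start of Pus3, the called gene whose E-box lies before the start, hold the E-box with its first base at position -132 from the start, again in capitals:
Pus3 (chr9:35558310-35558559, plus strand): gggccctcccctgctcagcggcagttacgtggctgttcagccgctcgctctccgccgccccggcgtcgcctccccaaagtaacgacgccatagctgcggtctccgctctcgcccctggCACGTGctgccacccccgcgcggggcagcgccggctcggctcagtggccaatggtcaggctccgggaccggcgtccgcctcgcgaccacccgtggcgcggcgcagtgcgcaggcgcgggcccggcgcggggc

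CCGGAAG, a core bound by ETS factors, was found in 14 of the 43 (32.6%; 12.9% of protein-coding genes) on either strand. None of the 6 genes that fell held it. CCGGAAG was chosen after the changes were known, and its protein-coding set was the same as for the E-box.

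Between 51.7% and 53.5% of the non-control spots of an array were well above background. The arrays of a group correlated at r = 0.990 (control) and 0.995 (fluoxetine) over the genes tested, and arrays of different groups at 0.973 to 0.981. The arrays shared 1 slide with each group's pair side by side, so group and place on the slide cannot be told apart. All values below are log2 of the processed signal relative to the 75th percentile of the array, so that 0 is the level of that percentile, and a change is the fluoxetine mean minus the control mean with its standard error from limma. Of 10 mesenchymal and sarcoma markers, 6 (Acta2, Cd44, Col1a1, Fn1, S100a4 and Vim) were well above background on all 4 arrays and 3 (Col3a1, Pdgfrb and Thy1) on none. Their summed level, relative to the 75th percentile on a linear scale, was 98.6 to 110 in the control and 100.1 to 102 in the fluoxetine samples. Within that list Col1a2 fell, by at least 2.38-fold (adjusted p = 0.0119), since it was not well above background on the fluoxetine arrays, and Acta2 had a change of -0.64 ± 0.19 (adjusted p = 0.0790). Such a bound replaces a dim array's value by the array's detection floor (its dimmest probe called well above background), unless the measured value is higher. The epithelial markers Epcam, Krt8, Krt18 and Krt19 were also above background on all 4 arrays, and Cdh1 and Cldn3 on none, with a summed level over the 6 of 223 to 236 in the control and 193 to 198 in the fluoxetine samples. The summed level of 10 leukocyte markers was 6.05 to 6.16 in the control and 2.61 to 2.72 in the fluoxetine samples. Of these, Cd3e, Csf1r and Itgam were above background on all 4 arrays, and the pan-leukocyte marker Ptprc and 5 others (Adgre1, Cd79a, Ly6g, Lyz2 and Nkg7) on none. Itgam fell by 1.96 ± 0.07 on its brightest probe, while another of its probes had a change of opposite sign. Cd3e rose by 0.52 ± 0.10 on its brightest probe (another had a change of opposite sign), and Csf1r had a change of -0.16 ± 0.10. Of the erythroid markers, Hba-a1 was above background on all 4 arrays and rose by 2.09 ± 0.08, Hbb-bt was at least 5.68-fold higher with fluoxetine (adjusted p = 0.00783) and not well above background on the control arrays, and Alas2 was above background on none. Of the 4 endothelial markers only Pecam1 was above background on all 4 arrays, with a summed level of 0.244 to 0.287 in the control and 0.267 to 0.326 in the fluoxetine samples. The part of these differences in the results below was not tested. In bulk RNA, fewer cells of a type and less RNA per cell cannot be told apart.

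A few of the 50 genes fell with fluoxetine and most did not pass the test. By limma with Benjamini-Hochberg adjustment over all genes tested, 7 of the 50 passed an adjusted p of 0.05. Of these, 6 fell (Npm3, Pus7, Dkc1, Wdr43, Nop56 and Pus3) and 1, Nop14, rose. The share called was 14.0%, against 26.9% of all genes tested. Fallen genes were 6 of 50 against 10.1% of all genes tested, and risen genes 1 of 50 against 16.8%. The median change of the 50 genes was -0.08 (range -3.07 to 0.62), beside 0.06 for all genes tested, and 31 of the 50 had a change below 0. Scaling each array to its median instead moved all genes upward, to a median of 0.27, and the 50 genes to 0.13, with 13 of them higher, 6 lower and 12.9% of all called genes lower against 37.7% under the 75th percentile. Relative to all genes tested, the median of the 50 lay 0.14 below (a difference of -0.14) under both scalings. This had to be so, since these scalings differ by a constant per array and shift every gene's change alike. With no filter on dim probes the difference was -0.01, with medians of -0.08 for the 50 and -0.07 for all genes. At an unadjusted p of 0.05, 13 of the 50 passed, against 5960 of the 13539.

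The groups did not overlap, every array of one group lying above every array of the other, in 37 of the 50 genes, against 72.5% of all genes tested. The fluoxetine arrays were the lower ones in 24 of the 50, against 30.9% of all genes tested, and the higher ones in 13 of the 50, against 41.6%. Falls of at least 2-fold that passed the test occurred in 3 genes (Npm3, Pus7 and Dkc1), beside changes of that size in either direction in 4.58% of all genes tested. For 1 gene on its own, permuting these 2 and 2 arrays exactly gives no two-sided p under 0.333.

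**Figure D1:**
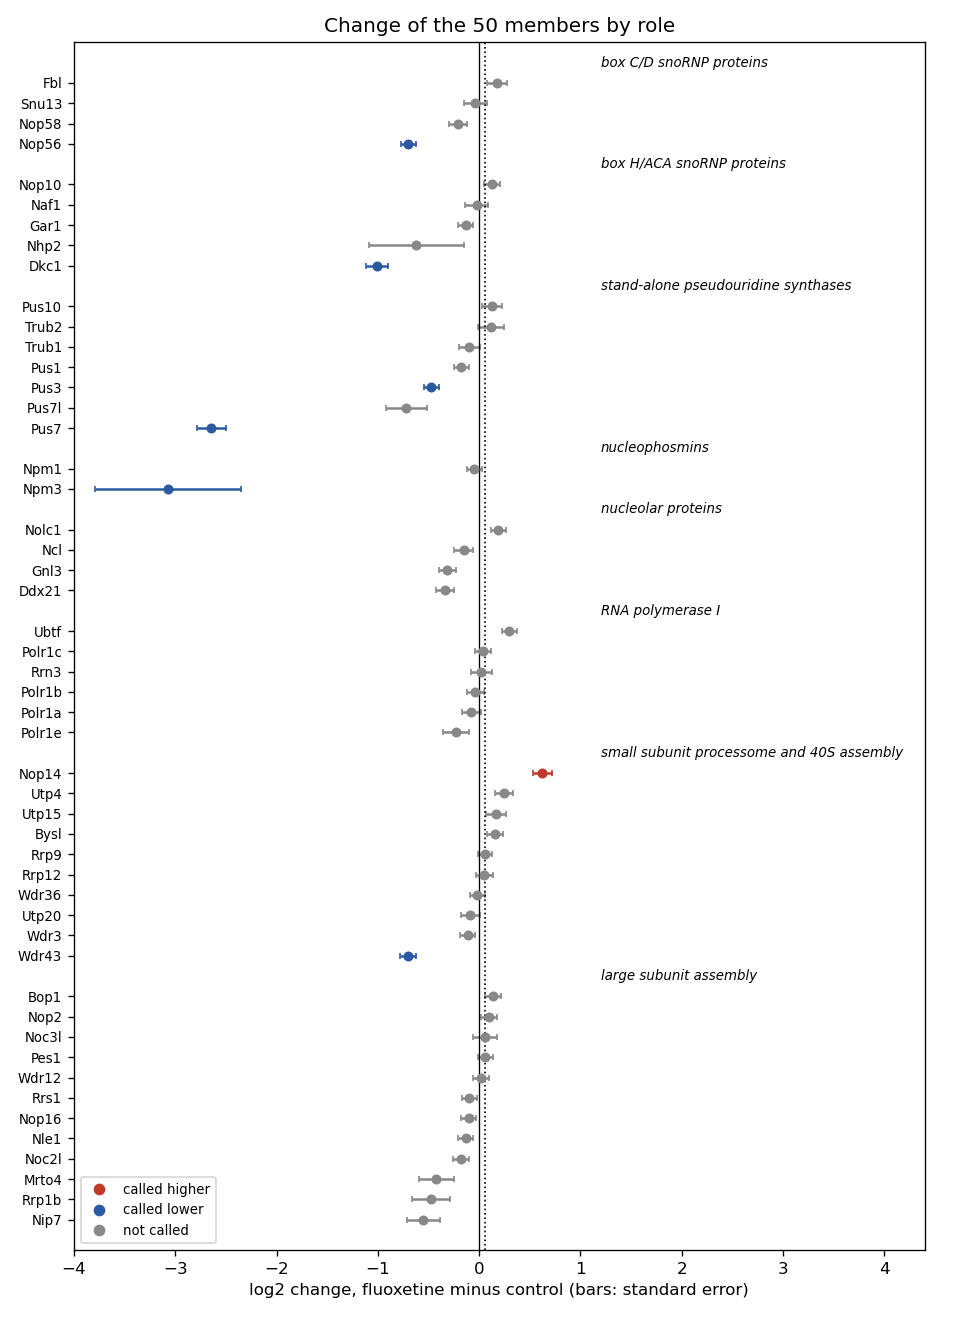
Log2 change (fluoxetine minus control, x axis) of each of the 50 genes, grouped by role, with the standard error from limma as bars (n = 2 arrays per group). The solid line marks 0 and the dotted line the median of all genes tested, 0.06. The 6 genes called lower and the 1 called higher are coloured, and Npm3 and Pus7 lie far to the left of the others.

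The box C/D proteins are the core that holds guide RNAs for ribose methylation. Of these 4, only Nop56 passed the test, beside 26.9% of all genes tested. Nop56, a scaffold protein of the complex, had levels of 5.34 and 5.30 in the control samples and 4.65 and 4.59 in the fluoxetine samples. Both fluoxetine arrays were lower than both control arrays by more than either group's spread. Nop56 fell by 0.70 ± 0.08, or 1.62-fold (adjusted p = 0.0145). Fibrillarin (Fbl), the methyltransferase itself, was at 7.28 and 7.44 in the control and 7.59 and 7.47 in the fluoxetine samples, a change of 0.17 ± 0.10 (adjusted p = 0.250). Nop58, the partner scaffold of Nop56, was at 5.74 and 5.84 in the control and 5.65 and 5.52 in the fluoxetine samples on its brightest probe (-0.21 ± 0.09, adjusted p = 0.158). Snu13, which binds the kink-turn of the guide RNA, was at 5.24 and 5.49 in the control and 5.32 and 5.34 in the fluoxetine samples, and its groups overlapped (-0.04 ± 0.11). The median of the class was -0.12.

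Of the 5 box H/ACA proteins 1 passed the test, beside 26.9% of all genes tested. It was dyskerin (Dkc1), the pseudouridine synthase of the complex. Its levels were 0.86 and 0.93 in the control samples and 0.00 and -0.22 in the fluoxetine samples, which did not overlap. Dkc1 fell by 1.01 ± 0.11, or 2.01-fold (adjusted p = 0.0145). The 3 small core proteins gave values that did not pass. Nop10 was at 5.30 and 5.38 in the control and 5.50 and 5.44 in the fluoxetine samples (0.13 ± 0.08). Gar1 was at 6.30 and 6.33 in the control and 6.16 and 6.20 in the fluoxetine samples (-0.13 ± 0.07). Nhp2 was the most uneven gene of the class, at 6.55 and 5.43 in the control and 5.02 and 5.72 in the fluoxetine samples, so that its groups overlapped (-0.62 ± 0.47, adjusted p = 0.361). Leaving out 1 array at a time moved the change of Nhp2 between -1.18 and -0.06. Naf1, an assembly factor that Gar1 replaces in the mature complex, had a change of -0.02. The median of the class was -0.13, and 0.08 when arrays were scaled to their median.

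On their brightest probes, 2 of the 7 stand-alone pseudouridine synthases fell and none rose. Beside them, 10.1% of all genes tested fell and 16.8% rose. Pus7, which modifies a defined sequence in transfer RNA and mRNA, had the second largest change among the 50 genes. On its brightest probe its levels were 3.93 and 3.57 in the control and 1.15 and 1.06 in the fluoxetine samples, or processed signals of 6820 and 4940.2 against 792 and 872. Pus7 fell by 2.64 ± 0.15, or 6.25-fold (adjusted p = 0.00822), and ranked 67 of 13539 genes by the size of its change. A dimmer probe of the same transcript gave another answer, described with the probes below. Pus3, which modifies the anticodon arm of transfer RNA, had levels of 3.42 and 3.49 in the control and 2.99 and 2.97 in the fluoxetine samples, with tight groups that did not overlap. Pus3 fell by 0.47 ± 0.08, or 1.39-fold (adjusted p = 0.0243). Pus7l, a paralogue of Pus7, had levels of 0.61 and 0.27 in the control and -0.48 and -0.07 in the fluoxetine samples and did not pass (-0.72 ± 0.20, adjusted p = 0.0673). Pus10, at 3.60 and 3.63 in the control and 3.84 and 3.65 in the fluoxetine samples, changed by 0.13 ± 0.10. Trub2, a mitochondrial RNA pseudouridine synthase, was at 6.49 and 6.69 in the control and 6.83 and 6.59 in the fluoxetine samples, with overlapping groups (0.12 ± 0.13). Pus1 and Trub1 had changes of -0.17 and -0.10 on their brightest probes, and changes above 0 on dimmer probes described below. The median of the class was -0.17 on the brightest probes and 0.05 with the mean of all kept probes. It was 0.04 when arrays were scaled to their median.

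The nucleophosmins gave unlike values. Npm1, the abundant nucleophosmin of the granular nucleolus, was at 6.96 and 6.98 in the control and 6.96 and 6.89 in the fluoxetine samples (-0.05 ± 0.08, adjusted p = 0.659). Npm1 has processed copies elsewhere in the genome, whose transcripts its probes may not separate. Npm3, a smaller member of the family, had levels of 3.04 and 1.01 in the control and -0.90 and -1.20 in the fluoxetine samples, or processed signals of 3695 and 839 against 191 and 183. The fluoxetine arrays lay close together and below both control arrays, which themselves stood far apart. Npm3 fell by 3.07 ± 0.72, or 8.43-fold (adjusted p = 0.0476), and ranked 40 of 13539 genes by size. Its single probe gave an adjusted p of 0.0542 in the fit over all probes, so the call lies at the edge of the threshold. The change was -2.06 without control 1 and -4.09 without control 2.

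None of the 4 other nucleolar proteins passed the test, beside 26.9% of all genes tested that did. Nucleolin (Ncl), an RNA-binding protein of the nucleolus, was at 6.91 and 7.04 in the control and 6.78 and 6.86 in the fluoxetine samples on its brightest probe (-0.15 ± 0.09, adjusted p = 0.263). Nolc1, a chaperone of snoRNPs, was at 5.92 and 6.01 in the control and 6.17 and 6.14 in the fluoxetine samples (0.19 ± 0.08). Ddx21, an RNA helicase, was at 3.80 and 3.95 in the control and 3.56 and 3.52 in the fluoxetine samples, and missed the threshold (-0.34 ± 0.09, adjusted p = 0.0614). Nucleostemin (Gnl3), a nucleolar GTPase, missed it by a like margin (-0.31 ± 0.08, adjusted p = 0.0619). Both are called when the 75th percentile is taken over all spots instead of distinct probes.

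None of the 6 genes of the RNA polymerase I machinery passed the test, beside 26.9% of all genes tested that did. Their median change was -0.01, and the range ran from -0.23 (Polr1e) to 0.30 (Ubtf). The largest subunit, Polr1a, was at 4.19 and 4.30 in the control and 4.22 and 4.11 in the fluoxetine samples, with overlapping groups (-0.08 ± 0.09). Polr1c, which RNA polymerase III also uses, was at 5.75 and 5.71 in the control and 5.72 and 5.81 in the fluoxetine samples (0.03 ± 0.08). Ubtf, the upstream binding factor that opens ribosomal DNA, was at 6.08 and 6.10 in the control and 6.44 and 6.35 in the fluoxetine samples and missed the threshold (0.30 ± 0.08, adjusted p = 0.0595). Ubtf is called when arrays are scaled to their median or quantile normalized, and Polr1e with the mean of all kept probes. The second largest subunit, Polr1b, and the initiation factor Rrn3 had changes of -0.04 and 0.02.

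Among the 10 small subunit factors, 1 fell and 1 rose, beside 10.1% of all genes tested that fell and 16.8% that rose. Wdr43, a processome subunit, had levels of 4.30 and 4.24 in the control and 3.53 and 3.61 in the fluoxetine samples, far apart relative to the spread of either group. Wdr43 fell by 0.70 ± 0.08, or 1.63-fold (adjusted p = 0.0153). Nop14, another processome subunit, had levels of 1.38 and 1.44 in the control and 2.11 and 1.95 in the fluoxetine samples. Nop14 rose by 0.62 ± 0.09, or 1.54-fold (adjusted p = 0.0219). This was the only rise that passed the test among the brightest probes of the 50 genes. Dimmer probes of Wdr3 and Trub1 also rose, as described with the probes below. Utp4, also a processome subunit, was at 4.72 and 4.85 in the control and 5.07 and 4.99 in the fluoxetine samples (0.25 ± 0.09, adjusted p = 0.110). Wdr3 was at 4.37 and 4.41 in the control and 4.30 and 4.26 in the fluoxetine samples on its brightest probe (-0.11 ± 0.07). Wdr36 was at 3.89 and 3.92 in the control and 3.89 and 3.89 in the fluoxetine samples (-0.02 ± 0.07). The other 5 (Utp15, Utp20, Rrp9, Rrp12 and Bysl) had changes between -0.09 and 0.17. The median of the class was 0.06, the same as that of all genes tested.

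None of the 12 large subunit factors passed, beside 26.9% of all genes tested that did. Their median change was -0.10 (range -0.55 to 0.14), and 0.12 when arrays were scaled to their median. Bop1, Pes1 and Nop2 are called under that scaling, and Rrp1b with the mean of all kept probes. Nip7 is called when only probes above background on all 4 arrays are kept. Pes1, Bop1 and Wdr12 form the complex that drives removal of an internal spacer from the precursor RNA. Pes1 was at 5.63 and 5.58 in the control and 5.67 and 5.66 in the fluoxetine samples (0.06 ± 0.07). Bop1 was at 5.11 and 5.18 in the control and 5.29 and 5.28 in the fluoxetine samples (0.14 ± 0.07). Wdr12 had a change of 0.02. Nop2, a methyltransferase of large subunit RNA, was at 5.97 and 6.03 in the control and 6.14 and 6.07 in the fluoxetine samples (0.10 ± 0.08). The lowest values of the class belonged to the precursor-binding factor Nip7 (-0.55 ± 0.16, adjusted p = 0.0747), Rrp1b (-0.48 ± 0.19, adjusted p = 0.131) and Mrto4, which prepares the site of the ribosomal stalk (-0.42 ± 0.17, adjusted p = 0.146). For these 3 genes the arrays of at least one group lay far apart, as for Nip7, at 5.23 and 5.39 in the control and 4.56 and 4.95 in the fluoxetine samples. Nop16, Rrs1, Noc2l, Noc3l and Nle1 had changes between -0.18 and 0.06.

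**Figure D2:**
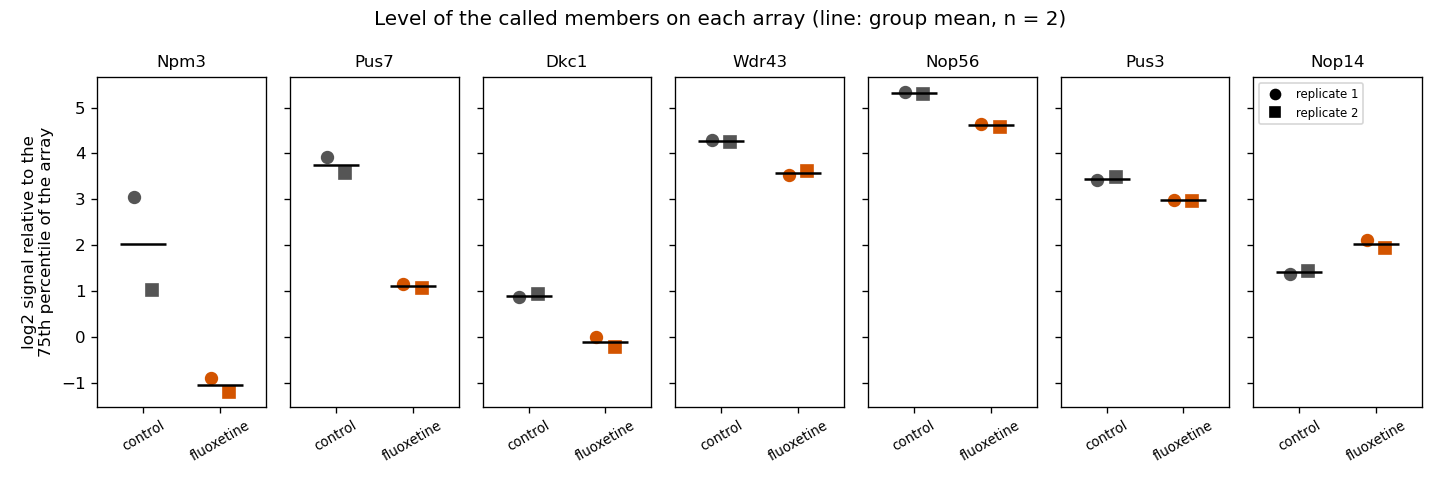
Level of each of the 7 called genes on each array (log2 of the processed signal relative to the array's 75th percentile, y axis), with circles for replicate 1, squares for replicate 2 and a line at the mean of each group (n = 2). The control arrays of Npm3, at 3.04 and 1.01, stand far apart, while both groups of Nop56, Wdr43 and Pus3 are tight and do not overlap.

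Probes of 1 gene did not always give 1 answer. Of the 50 genes, 29 had 1 kept probe and 21 had several. All probes had changes of 1 sign in 9 of the 21 (42.9%), against 57.7% of the 4968 genes with several probes. By limma's test of each probe against the others of its gene (diffSplice), adjusted over all such probes, 7 of the 21 held a probe that differed, against 25.8% of those 4968 genes. The 7 were Pus7, Wdr3, Nop58, Wdr36, Pus1, Ncl and Trub1. Other genes held probes of opposite sign without a difference that passed. With the brightest probe first, Gar1 had -0.13 and 0.17, Pes1 0.06 and -0.29, Polr1c 0.03 and -0.12, and Trub2 0.12 and -0.02. Ubtf had 0.30, 0.26 and -0.20, Npm1 -0.05, -0.26 and 0.05, and Wdr12 0.02, -0.14 and 0.02. In the fit over all 28270 probes, 13 of the 78 probes were called, against 25.6% of all probes. Of the 13, 10 were lower (13.0% of all probes) and 3 higher (12.6%).

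Both probes of Nop56, Dkc1, Pus3 and Wdr43 had changes below 0, with no difference between them that passed the test. The second probes gave -0.52 ± 0.24 for Nop56, -0.55 ± 0.24 for Dkc1 and -0.32 ± 0.10 for Pus3, none of which passed on its own. The second probe of Wdr43 did pass (-0.44 ± 0.08, adjusted p = 0.0330), at 1.76 and 1.75 in the control and 1.33 and 1.30 in the fluoxetine samples. Dimmer probes also passed in Polr1e (-0.67 ± 0.10, adjusted p = 0.0227, beside -0.23 on its brightest) and Rrp1b (-0.70 ± 0.13, adjusted p = 0.0364, beside -0.48), without a difference between probes that passed the test. Npm3 and Nop14 had a single probe each, so their changes have no second probe to set beside them.

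Pus7 showed the largest disagreement among the 21 genes. Its second probe, matched to the same accession, was at -1.99 and -1.78 in the control and -1.65 and -1.75 in the fluoxetine samples (0.19 ± 0.11), while the brightest probe fell by 2.64. The probes differed by 2.83 ± 0.20 (adjusted p = 0.00133). Both probes were well above background on all 4 arrays. The mean of both probes fell by 1.23.

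The second probe of Wdr3, matched to the same accession as the first, was at -0.45 and -0.41 in the control and 0.65 and 0.51 in the fluoxetine samples. It rose by 1.01 ± 0.09 (adjusted p = 0.0151), whereas the brightest probe had a change of -0.11, and the probes differed by 1.12 ± 0.11 (adjusted p = 0.00358). Nop58 had 4 probes of 1 accession with changes of -0.21, -0.90, -0.12 and -0.48. The second brightest, at 4.87 and 4.85 in the control and 4.07 and 3.86 in the fluoxetine samples, fell by 0.90 ± 0.11 (adjusted p = 0.0188) and differed from the other three by -0.63 ± 0.11 (adjusted p = 0.00703). The probe with a change of -0.12 differed from the others in the other direction, by 0.40 ± 0.11 (adjusted p = 0.0318). All 4 had changes below 0.

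Both probes of nucleolin had changes below 0 but of unlike size. The dimmer one, at 1.05 and 0.78 in the control and -0.10 and -0.01 in the fluoxetine samples, fell by 0.97 ± 0.13 (adjusted p = 0.0205), and differed from the brightest by 0.82 ± 0.16 (adjusted p = 0.0204). The probes of Trub1, Pus1 and Wdr36 matched different accessions of their gene. The second probe of Trub1, at -0.81 and -0.48 in the control and 0.02 and 0.03 in the fluoxetine samples, rose by 0.67 ± 0.14, beside -0.10 for the brightest, which was at 2.44 and 2.64 in the control and 2.50 and 2.38 in the fluoxetine samples (difference 0.77 ± 0.18, adjusted p = 0.0357). The second probe of Pus1, at 1.88 and 1.92 in the control and 2.27 and 2.22 in the fluoxetine samples, had a change of 0.34 ± 0.08. Beside it, the brightest was at 2.70 and 2.72 in the control and 2.55 and 2.52 in the fluoxetine samples (difference 0.52 ± 0.10, adjusted p = 0.0175). The 3 probes of Wdr36 had changes of -0.02, 0.30 and -0.29, and the last 2 differed from the rest of the gene (adjusted p = 0.0154 and 0.0176).

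**Figure D3:**
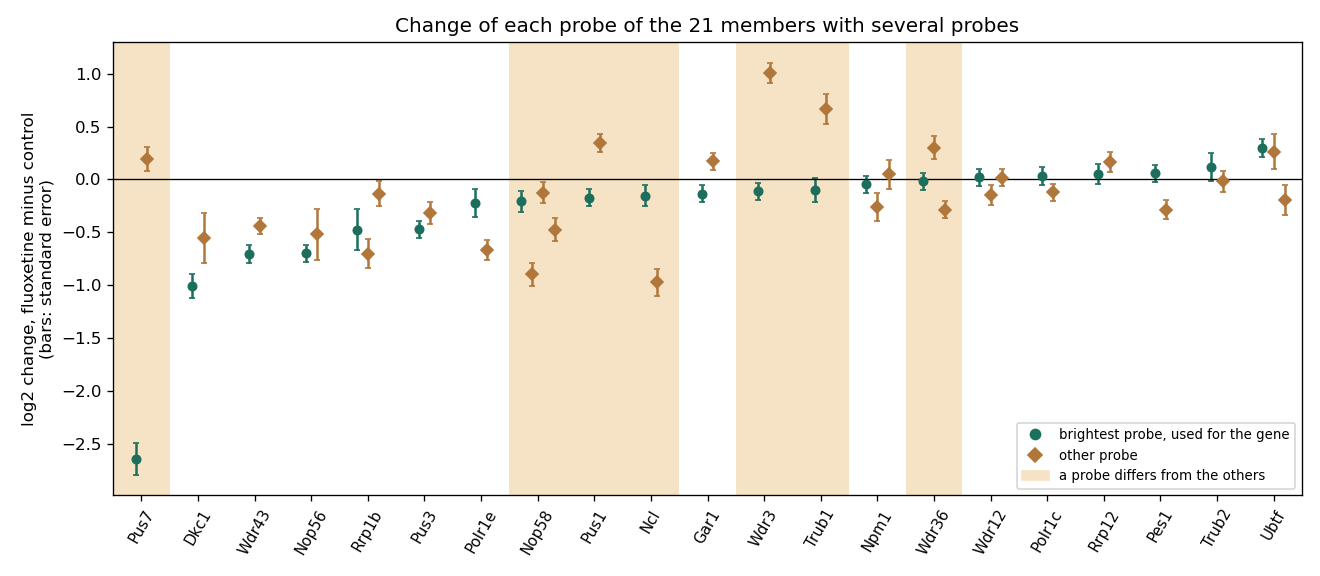
Log2 change (fluoxetine minus control, y axis) of every kept probe of the 21 genes with several probes, with the standard error as bars. Circles are the brightest probe, diamonds the others, and shading marks the 7 genes with a probe that differed from the others. The probes of Pus7 lie at -2.64 and 0.19, those of Wdr3 at -0.11 and 1.01.

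The other genes of these pathways were set in 6 lists of 120 genes, of which 117 were tested. Of the 117, 10 rose and 17 fell (23.1% called, against 26.9% of all genes tested, of which 16.8% were higher and 10.1% lower), and their median change was -0.05. Scaling each array to its median turned this split to 33 higher and 4 lower. Among 36 other small subunit factors 1 rose and 7 fell (median -0.13). The largest changes among the called genes of this list were those of Ddx52, an RNA helicase, on its brightest probe (-0.76 ± 0.07, adjusted p = 0.0129; another probe had a change of opposite sign), Nop9 (0.60 ± 0.09, adjusted p = 0.0229) and the processome factor Krr1 (-0.59 ± 0.10, adjusted p = 0.0278). Among 41 other large subunit factors 2 rose and 5 fell (median -0.05). Nmd3, the adaptor that takes the large subunit out of the nucleus, fell by 0.70 ± 0.12, the GTPase Gnl2 by 0.53 ± 0.10 and Pelp1 by 0.50 ± 0.07.

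Among 13 other RNA polymerase I genes, Ttf1, the termination factor, rose by 0.58 ± 0.08 (adjusted p = 0.0210). Taf1d, a subunit of the promoter selectivity factor SL1, fell by 1.04 ± 0.10 (adjusted p = 0.0124). The brightest probe of Taf1d, which gave this value, is matched to a non-coding transcript of the gene. The subunit Polr1f fell by 0.43 ± 0.10 (adjusted p = 0.0446). The median of this list was -0.03. Among 9 snoRNP assembly factors, Shq1, the chaperone that holds newly made dyskerin, rose by 1.15 ± 0.12 (adjusted p = 0.0141). The box C/D assembly factors Znhit3, Znhit6 and Nufip1 fell, by 0.49 ± 0.10, 0.48 ± 0.08 and 0.32 ± 0.07. Of 4 other pseudouridine synthases tested, Rpusd1 rose by 0.66 ± 0.08 and Rpusd3, a mitochondrial enzyme, by 0.60 ± 0.10, and none fell. Of 14 rRNA and tRNA methyltransferases, 3 rose and none fell, beside 16.8% of all genes tested that rose and 10.1% that fell. The 3 were Trmt61a, the catalytic subunit of a transfer RNA adenosine methyltransferase (0.64 ± 0.09), Nsun5 (0.63 ± 0.09) and Zcchc4 (0.53 ± 0.09), which modify large subunit RNA. Utp18, Taf1a and Rpusd2 were not tested.

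The 7 called genes kept the sign of their change under each of the 13 other settings tried, but not always their call. Many of these settings could not turn a sign. Other filters, a variance trend and a block for replicate number left these changes as they were. The groups of the 7 genes did not overlap, so leaving out 1 array could not turn them either. Pus7 ranged from -2.82 to -1.23, Dkc1 from -1.12 to -0.78, Nop56 from -0.74 to -0.49, Wdr43 from -0.76 to -0.49, Pus3 from -0.53 to -0.26, and Nop14 from 0.54 to 0.84. Leaving out control 1 kept the calls of 3 genes (Dkc1, Pus7 and Npm3). Leaving out either fluoxetine array left 0 of the 50 genes and 0 of all genes called, with 9 and 10 of the 50, and 4070 and 4537 of all genes, at an unadjusted p under 0.05 in limma. Leaving out control 2 called 7 of the 50, without Pus3 and with Rrp1b added.

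**Figure D4:**
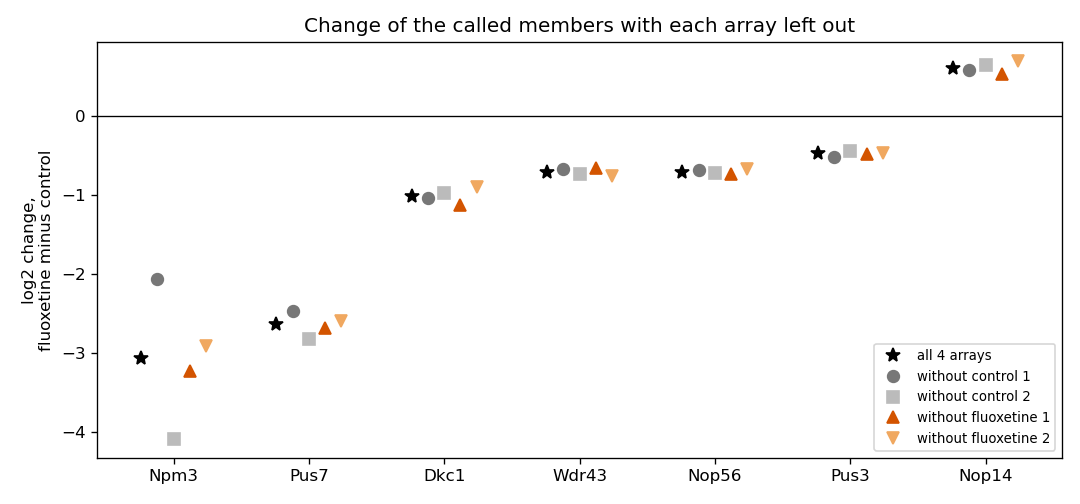
Log2 change (fluoxetine minus control, y axis) of the 7 called genes on all 4 arrays and with each array left out in turn. Npm3 moves between -2.06 and -4.09 with the control arrays, and each of the 7 genes keeps its sign.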

How the data were processed

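The 4 single-colour arrays carried total RNA from S-180 cells, 2 control and 2 fluoxetine. The authors deposited linear spot intensities from Feature Extraction (version 12.1.0.3, per the file headers). Their processed signal has the background taken off, per the file headers, and holds no scaling between arrays. What normalization followed is not stated in the labels or headers.

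Control, non-uniform and replicate-outlier spots were left out, and repeated spots averaged (47 probes lost). Signals were taken as log2 minus each array's 75th percentile over distinct probes. The array design used mm9, per the file headers, so the RefSeq gene table of GRCm38.p6 gave symbols only, by unversioned accession. A probe was kept if both arrays of either group marked it well above background, and the brightest stood for its gene. R 4.3.3 and limma 3.58.1 (lmFit, eBayes, Benjamini-Hochberg over 13539 genes) compared fluoxetine with control, with group as the only term. "Rose", "fell" and "called" mean an adjusted p under 0.05. The scripts were tested on simulated data. The number of arrays limits precision.

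The genes and lists were chosen with earlier results of these data known. Values per array are given for called genes, genes with differing probes and up to 3 of the highest levels per role, with a few others chosen after their values were seen, and up to 3 called genes per pathway list (plus Nufip1). Normexp (offset 50) was run on median signals, as the files used here carry no mean signal. Of the marker lists, 1 gene and the summed level that holds it are not reported here.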

Additional observations from a re-analysis of the deposited data

How the results depend on the processing

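With 13 settings changed 1 at a time, the 7 called genes kept their sign. The filters, the variance trend, the replicate block and leaving out 1 array could not have turned it. Npm3 lost its call under quantile normalization (adjusted p = 0.0563), with the mean of all kept probes (0.0509) and with the percentile over all spots (0.0510), the last added after seeing the data. Median scaling shifts every gene's change by the same amount. For the other settings the cause of the differences below was not tested.

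Under median scaling, 5486 genes were higher and 813 lower, as were 13 of the 50 genes higher, 33 and 4 pathway genes and 17 member probes higher. The medians became 0.27 for all genes tested, 0.13 for the 50 genes, 0.09 for box C/D, 0.08 for box H/ACA, 0.04 for stand-alone pseudouridine synthases, -0.02 for nucleolar proteins, 0.21 for RNA polymerase I, 0.27 for small subunit and 0.12 for large subunit factors. Changes that turned sign there were those of Nop58 (0.01), Gar1 (0.08), Pus1 (0.04), Ncl (0.06), Wdr3 (0.10), Nop16 (0.11), Rrs1 (0.12), Noc2l (0.03) and Nle1 (0.08). Under quantile normalization, 2 of the 50 genes rose, and the medians were -0.24 for stand-alone pseudouridine synthases, -0.07 for RNA polymerase I, 0.00 for small subunit and -0.15 for large subunit factors. Under normexp, 10 of the 50 genes and 18 member probes fell, the medians were -0.18 for box H/ACA and 0.04 for small subunit factors, and Bysl turned to -0.01. With no filter on dim probes, 23771 genes were tested and limma called 0 genes, 0 pathway genes and 0 member probes in either direction (5272 genes and 12 of the 50 at an unadjusted p under 0.05), 3 genes had differing probes, and the median of all genes was -0.07. With probes above background on all 4 arrays, 2 of the 50 genes rose and 10 fell. With the mean of all kept probes, 2 of the 50 rose, Gar1 (0.02), Pus1 (0.08) and Wdr3 (0.45) turned sign, and the medians were -0.23 for box C/D, -0.02 for box H/ACA, 0.05 for stand-alone pseudouridine synthases, -0.33 for nucleolar proteins and 0.13 for small subunit factors. With a variance trend, 2 of the 50 rose and 10 fell, 27 pathway genes fell, and 5 member probes rose and 18 fell. At an adjusted p under 0.1, 2239 genes, 10 of the 50, 26 pathway genes and 19 member probes were lower, and 2 of the 50 and 5 member probes higher. With the percentile over all spots, the medians were 0.02 for all genes, -0.17 for box H/ACA, -0.21 for stand-alone pseudouridine synthases, 0.02 for small subunit and -0.13 for large subunit factors.

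Leaving out 1 array at a time, which assumes that a lone array varies like the other group, called 0 to 1704 genes higher and 0 to 962 lower, 0 to 1 of the 50 genes higher and 0 to 6 lower, 0 to 7 pathway genes higher and 0 to 7 lower, and 0 to 2 member probes higher and 0 to 10 lower. Between 0 and 7 genes had differing probes. The medians ran from 0.02 to 0.09 for all genes, from -0.11 to -0.03 for the 50 genes, from -0.21 to -0.03 for box C/D, from -0.15 to -0.09 for box H/ACA, from -0.07 to 0.00 for RNA polymerase I and from 0.03 to 0.08 for small subunit factors.

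Same-numbered arrays deviated with a correlation of -0.12 over the genes tested. With so few arrays per group, this value cannot decide whether the numbers pair the samples. The main fit assumed no pairing. With the replicate block, 1085 genes were higher and 774 lower, 5 pathway genes higher and 3 lower, 1 member probe higher and 1 lower, 1 gene had differing probes, and 6 of the 50 genes were called, Pus3 being lost (adjusted p = 0.0722). The crossed pairing, added after seeing the data, called 2679 genes and 8 of the 50, Npm3 not among them.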
